A study of Ovis aries with 32 samples.

Results

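The collagen chains of the Tan sheep, a fat-tailed breed, were described in tail fat, liver, and tissue labelled hypothalamus and pituitary. Collagen chains were taken as all rows of the expression table whose gene name is COL, a number, A and a number, and 40 of the 30722 rows met this rule, with no name repeated. Male sheep aged 3 months were fed either a basal pellet with succinic acid, an intermediate of the citric acid cycle, at 1% of the dry matter (SA) or the basal pellet alone (CON), for 60 days after 10 days of adaptation, with 12 of 24 sheep on each diet. RNA-seq libraries came from 4 sheep per diet in each tissue, 32 libraries in all, and p-values measure only the spread between these libraries. Every group shared the basal pellet. COL6A1, COL7A1, COL9A2 and COL20A1 are not analysed here.

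Collagens are the main structural proteins of the extracellular matrix, each built from 3 chains wound into a triple helix. Fibrillar chains make the tension-bearing fibres of connective tissue, type IV chains make the sheet of basement membranes under endothelium and epithelium and around fat cells, and the other classes link, coat or anchor these networks. Fibroblasts and vascular cells make most collagen in adipose tissue, hepatic stellate cells and endothelium make much of it in liver, and blood vessels and meninges carry most of it in brain.

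The values are TPM, a length-scaled share of the transcripts in each library, and the sequencing depth behind them is unknown. The columns summed to 936939 to 987320 TPM. The share of mitochondrially encoded transcripts was 51.7 to 70.9% in liver SA and 20.2 to 27.8% in liver CON, and it was 25.6 to 50.2% in tail fat SA and 22.5 to 70.6% in tail fat CON. CCDC152, a gene next to SELENOP that was chosen after its values were seen, was at 448, 168, 645 and 842 TPM in liver SA and at 0 in every CON liver. In tail fat it was at 0.07, 156, 186 and 148 TPM in SA and 162, 0.12, 156 and 57.8 TPM in CON, so tail fat SA 1 and CON 2 were near 0 like liver CON while the other 6 were not. SELENOP itself was at 689, 241, 297 and 773 TPM in liver SA and 5758, 4976, 4686 and 4282 TPM in liver CON, without overlap. In liver these splits and the mitochondrial share follow the diet, so a difference in how the libraries were made or counted cannot be told apart from the diet in any liver comparison of SA and CON below. Liver and tail fat carried their defining markers, with albumin (ALB) at 3933 to 17867 TPM in liver SA and 50873 to 67922 TPM in liver CON and adiponectin (ADIPOQ) at 1390.1 to 5419 TPM in tail fat SA and 1071 to 9604 TPM in tail fat CON. The libraries labelled pituitary went against their label, with prolactin (PRL) at 0 to 1.79 TPM in SA and 0 to 0.17 TPM in CON, and those labelled hypothalamus had AVP at 0 to 1.41 TPM in SA and 0.20 to 0.72 TPM in CON, while the neuronal gene SNAP25 was at 372 to 1404 TPM in pituitary SA and 938 to 1259 TPM in pituitary CON. Both are named here by their labels only.

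Tail fat held the most collagen transcript of the tissues in this series. The 40 chains summed to 4104, 1168, 968 and 687 TPM in tail fat SA and 1151, 3066, 691 and 1470.4 TPM in tail fat CON. In liver they summed to 114, 101, 105 and 155 TPM in SA and 456, 425, 293 and 426 TPM in CON. In the libraries labelled hypothalamus the sums were 65.7, 126, 65.8 and 127 TPM in SA and 63.6, 70.01, 95.1 and 95.7 TPM in CON, and in those labelled pituitary 141, 152, 126 and 105 TPM in SA and 178, 119, 146 and 176 TPM in CON. The diets overlapped in tail fat and in the tissues labelled hypothalamus and pituitary, and in liver each SA library was below each CON library. Of the 40 chains, 12 had their highest group mean in tail fat, 13 in liver, 6 in hypothalamus and 9 in pituitary. Only 11 chains reached a mean of 20 TPM in any group. COL4A3, COL10A1 and COL23A1 stayed under 1 TPM in all 32 libraries.

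**Figure D1:**
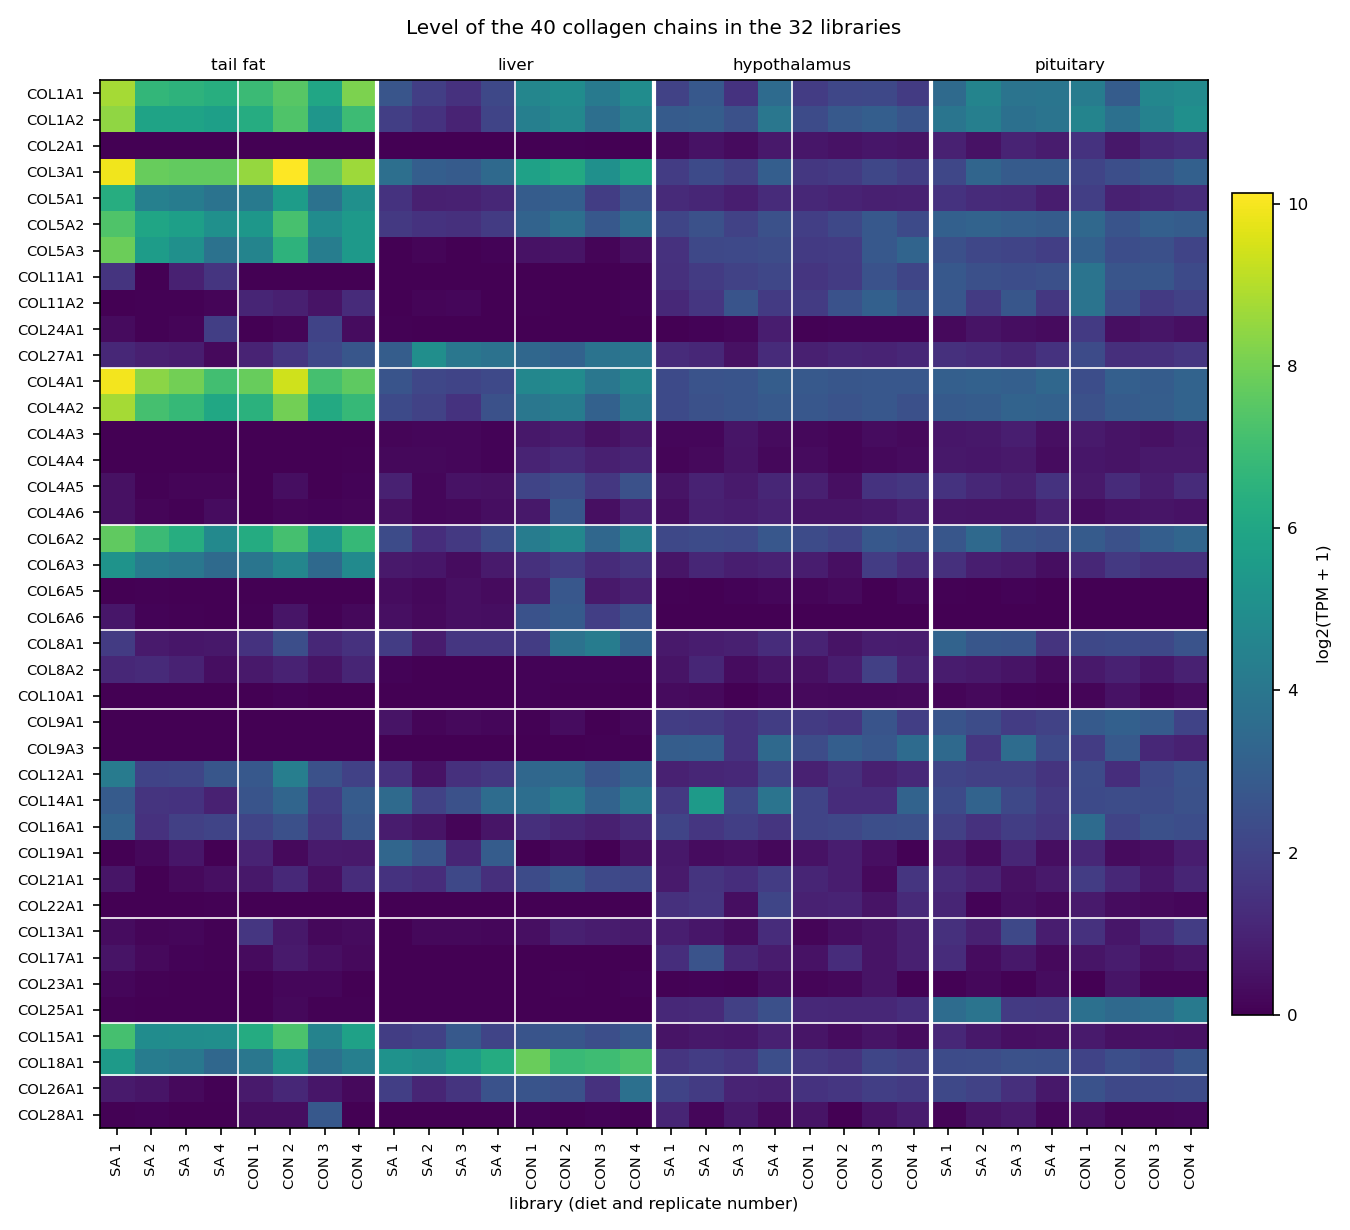
Level of each of the 40 collagen chains as log2(TPM + 1), one row per chain grouped by class (white lines, from fibrillar at the top through basement membrane, beaded filament, short-chain, fibril-associated, transmembrane and multiplexin to other at the bottom), in the 32 libraries with SA left of CON in each tissue. The brightest cells are fibrillar and type IV chains in tail fat, above all in SA 1 and CON 2, and the liver columns are darker in SA than in CON for most chains but not for COL19A1 or COL27A1.

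The make-up of the collagen transcripts differed between tissues, which is a share within each library and does not depend on how libraries are scaled to each other. Fibrillar chains made 43.5 to 58.8% of collagen TPM in tail fat SA and 54.4 to 63.4% in tail fat CON, and type IV chains 28.4 to 39.9% in SA and 20.8 to 30.7% in CON. Liver was led by COL18A1 in every library but SA 2, where COL27A1 was slightly higher. COL18A1 is a basement membrane zone collagen and the source of endostatin, and hepatocytes are known to make it. COL18A1 alone made 30.2 to 48% of collagen TPM in liver SA and 27.1 to 48.7% in liver CON, against 1.1 to 1.64% in tail fat SA and 1.28 to 1.83% in tail fat CON. In the libraries labelled hypothalamus and pituitary the fibril-associated chains, which coat fibrils rather than form them, held 19.9 to 49.2% in hypothalamus SA and 19.6 to 32.2% in hypothalamus CON, and transmembrane collagens held 3.25 to 10.1% in pituitary SA and 8.28 to 11.3% in pituitary CON. Transmembrane chains were near 0 in liver, at 0 to 0.168% in SA and 0.0702 to 0.242% in CON.

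**Figure D2:**
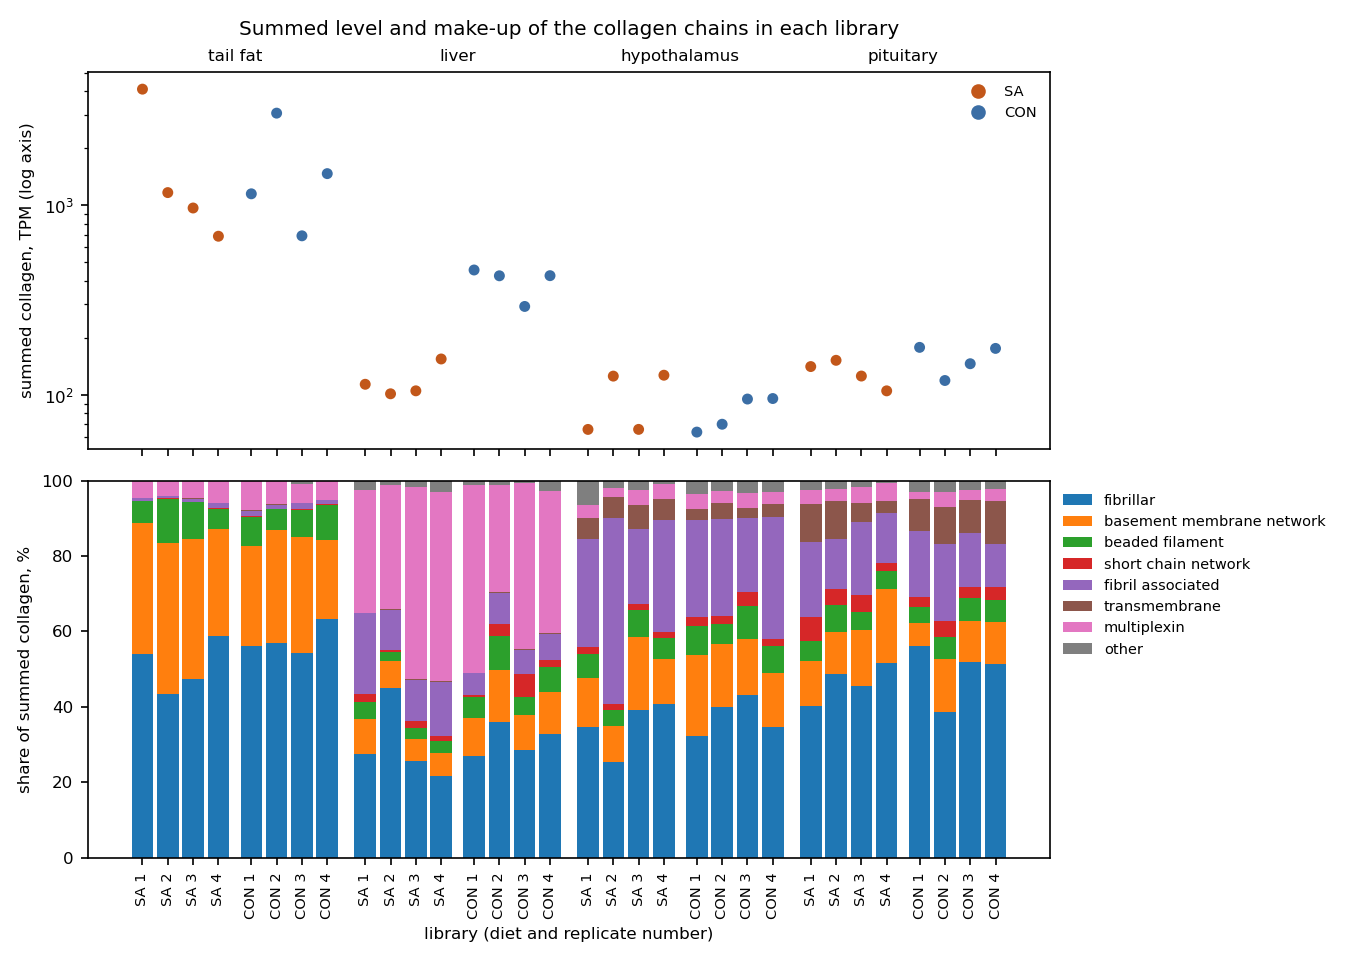
Upper panel: summed TPM of the 40 chains in each library on a log axis, SA in orange left of CON in blue. Lower panel: share of that sum held by each structural class, in percent, one bar per library. The fibrillar and basement membrane classes fill most of each tail fat bar, the multiplexins (COL15A1 and COL18A1) take a larger share in liver than in any other tissue, and transmembrane chains are visible mainly in the libraries labelled hypothalamus and pituitary.

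In liver, most collagen chains tested were lower in SA than in CON, as were most genes. Of the 40 chains, 20 passed the filter of at least 1 TPM in 4 of the 8 libraries and the other 20 were not tested. COL4A5, COL6A3 and COL6A6 reached the filter through CON alone and COL19A1 through SA alone, so these 4 had to differ in order to be tested. Of the 20 tested, 15 were lower and 1, COL19A1, was higher at an adjusted p under 0.05 (limma over all tested genes on log2(TPM + 1), Benjamini-Hochberg), while 59.1% of all 11582 genes tested were lower and 5.21% were higher. The median change was −1.74 for the 20 chains and −0.83 for all genes, and 15 of the 20 chains lay below the median of all genes. Without the 4 chains that passed through a single diet, 12 of 16 were lower and 0 higher. With no filter the 4 kept their calls (limma, adjusted p = 0.00110 for COL4A5 at −1.62, 0.00291 for COL6A3 at −0.90, 0.000252 for COL6A6 at −2.07 and 0.00383 for COL19A1 at 2.34). In bulk tissue, fewer cells of a type and less RNA per cell cannot be told apart.

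The fibre-forming chains of types I and III had the 3 lowest changes of the 20. COL1A1, the main chain of type I collagen, was at 5.32, 2.64, 1.7 and 3.63 TPM in the 4 SA libraries and 24, 29.2, 16.6 and 29.4 TPM in the 4 CON libraries. COL1A2, the other type I chain, was at 2.65, 1.82, 1.03 and 3.17 TPM in SA and 19.5, 25.9, 11.8 and 20.1 TPM in CON. COL3A1, the single chain of type III collagen, which forms the reticular fibres of liver, was at 12.2, 7.21, 6.42 and 9.98 TPM in SA and 54.6, 69.95, 33.2 and 58.8 TPM in CON. None of the 3 overlapped between diets, and in CON the replicate 3 library was the lowest for each of them. COL1A2 fell by 2.68 on the log2 scale (SE 0.29, adjusted p = 8.61e-05 by limma), COL1A1 by 2.62 (SE 0.29, adjusted p = 9.89e-05) and COL3A1 by 2.46 (SE 0.29, adjusted p = 0.000118). COL5A2, a type V chain that takes part in starting fibrils, was at 2.19, 1.78, 1.63 and 2.42 TPM in SA and 8.33, 11.9, 5.92 and 11.1 TPM in CON, again without overlap (limma, change −1.75, SE 0.23, adjusted p = 0.000173). Its partner COL5A1 averaged 1.19 ± 0.46 TPM in SA and 5.37 ± 2.06 TPM in CON (SD, n = 4 each, limma change −1.49, SE 0.28, adjusted p = 0.00121).

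Chains of the basement membrane were lower as well. COL4A1, present in all basement membranes, was at 5.17, 3.48, 3.26 and 3.7 TPM in SA and 24.7, 28.9, 15 and 23.7 TPM in CON (limma, change −2.28, SE 0.24, adjusted p = 7.52e-05). COL4A2, which joins 2 COL4A1 chains in the same trimer, was at 3.85, 3.01, 1.82 and 4.66 TPM in SA and 15.4, 17.9, 7.94 and 16.7 TPM in CON (limma, change −1.83, SE 0.30, adjusted p = 0.000601). COL4A5, a chain of more restricted basement membranes, was at 0.93, 0.14, 0.42 and 0.37 TPM in SA and 3.2, 4.16, 2.09 and 4.78 TPM in CON (limma, change −1.62, SE 0.24, adjusted p = 0.000311), and it was tested through its CON libraries alone. For each of these chains the highest SA library lay below the lowest CON library. COL18A1, the collagen of highest mean in liver, was at 34.5, 30.6, 47.4 and 74.3 TPM in SA and 222, 115, 125 and 154 TPM in CON (limma, change −1.74, SE 0.35, adjusted p = 0.0018), also without overlap. The related multiplexin COL15A1 averaged 3.69 ± 1.58 TPM in SA and 5.29 ± 0.61 TPM in CON, and it did not pass (limma, change −0.47, adjusted p = 0.0953).

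Among the remaining classes, all 3 tested chains of type VI collagen, which forms beaded filaments close to cells, were lower. COL6A2 was at 3.99, 1.52, 2.24 and 4.00 TPM in SA and 18.1, 24.9, 9.38 and 20.3 TPM in CON (limma, change −2.27, SE 0.33, adjusted p = 0.000322). COL6A6, one of the additional type VI chains, was at 0.33, 0.21, 0.34 and 0.30 TPM in SA and 4.92, 6.28, 2.68 and 4.56 TPM in CON (limma, change −2.07, SE 0.21, adjusted p = 6.5e-05), again tested through CON alone. Every SA library of both chains lay under every CON library. COL12A1, a fibril-associated chain of tissues under tension, was at 1.71, 0.39, 1.68 and 2.12 TPM in SA and 9.32, 9.97, 5.45 and 8.04 TPM in CON (limma, change −1.93, SE 0.28, adjusted p = 0.000331). COL6A3, COL8A1 and COL21A1 also passed as lower, with changes of −0.90, −1.82 and −0.78, the COL8A1 and COL21A1 libraries overlapping between diets and COL6A3 tested through CON alone.

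A few liver chains behaved otherwise, and they are named here after their values were seen. COL19A1, a fibril-associated chain found at low levels in adult tissue, was at 9.27, 5.36, 1.09 and 6.82 TPM in SA and 0, 0.17, 0 and 0.37 TPM in CON. Every SA library exceeded every CON library, and COL19A1, tested through SA alone, was higher in SA (limma, change 2.34, SE 0.43, adjusted p = 0.00126). Its neighbour in the RefSeq order of genes, COL9A1, did not exceed 0.46 TPM in liver SA or 0.27 TPM in liver CON. COL27A1, a fibrillar chain best known from cartilage, was at 6.98, 31.2, 15.3 and 13.2 TPM in SA and 9.36, 8.1, 13.6 and 14.5 TPM in CON. The SA libraries of COL27A1 spread on both sides of CON, with SA 2 the highest of the 8, and it did not pass (limma, change 0.37, SE 0.39, adjusted p = 0.43). COL14A1, a fibril-associated chain, was at 10.4, 2.95, 4.77 and 11.1 TPM in SA and 11.6, 17.7, 8.28 and 15.8 TPM in CON, which overlap (limma, adjusted p = 0.0693). COL26A1 did not pass either, at 2.63 ± 1.61 TPM in SA and 5.99 ± 4.5 TPM in CON (SD, n = 4 each, limma adjusted p = 0.149).

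**Figure D3:**
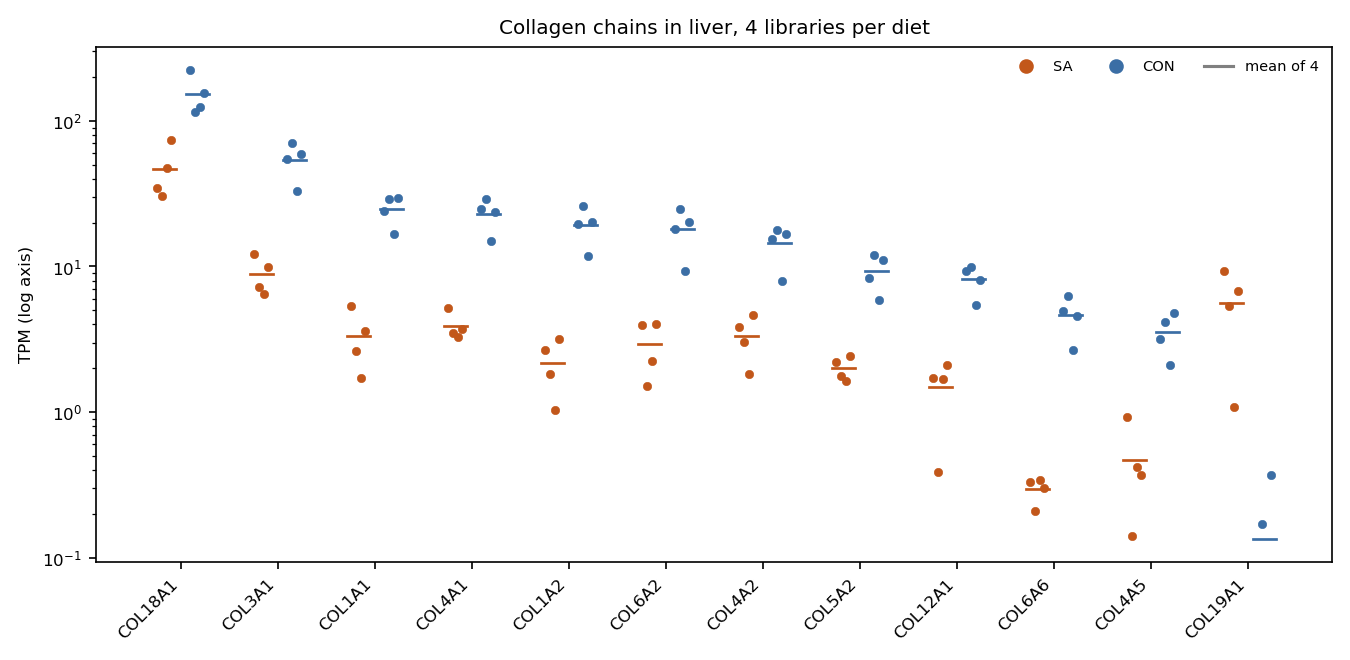
TPM of 12 collagen chains in the 8 liver libraries on a log axis, SA in orange left of CON in blue, points for libraries and lines for the mean of 4. CON libraries of COL19A1 listed at 0 are below the axis and not drawn. Of the chains drawn, 11 were picked by level or by the smallest p of the diet test, and COL19A1 was added after its values were seen. The SA points of the 11 lie below all their CON points while those of COL19A1 lie above. Of all 20 chains tested, 13 lay below, 1 above and 6 overlapped, where SA lay below CON in every library for 54.2% of all genes tested and above for 4.07%.

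Because most genes tested were lower in liver SA, the test was repeated under 2 other scalings. After quantile normalization the median change of all genes was −0.09, and 11 chains were lower and 1 higher, against 21.1% of all genes lower and 16.3% higher. With mitochondrial and rRNA genes taken out and the rest rescaled, the median of all genes was −0.0013, and 9 chains were lower and 1 higher, against 14% of all genes lower and 15.8% higher. The same 9 chains were lower under the deposited TPM and both scalings, namely COL1A1, COL1A2, COL3A1, COL4A1, COL4A5, COL5A2, COL6A2, COL6A6 and COL12A1. The filter used the deposited TPM under both scalings, so COL4A5, COL6A3 and COL6A6 were still tested through CON alone and COL19A1 through SA alone. Those of them that were called are included in the counts of both scalings. COL1A2 changed by −1.90 under quantile normalization and −1.93 under removal, and COL3A1 by −1.50 and −1.45. COL18A1 lost its call under both, with a change of −0.66 (limma, adjusted p = 0.0765) under quantile normalization and −0.66 (limma, adjusted p = 0.105) under removal. So did COL6A3, at −0.38 (limma, adjusted p = 0.125) and −0.50 (adjusted p = 0.195), COL8A1, at −1.11 (adjusted p = 0.0901) and −1.12 (adjusted p = 0.122), and COL21A1, at −0.07 (adjusted p = 0.84) and, with the sign turned, 0.04 (adjusted p = 0.947). COL4A2 lost it under removal alone (limma, adjusted p = 0.0536), as did COL5A1 (limma, adjusted p = 0.0625). COL19A1 stayed higher, at 2.78 and 3.60. As a share of non-mitochondrial TPM, summed collagen was 0.0242 to 0.0372% in SA and 0.0407 to 0.0597% in CON, without overlap. COL18A1, which lost its call under both scalings, made 30.2 to 48% of summed collagen in SA and 27.1 to 48.7% in CON.

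**Figure D4:**
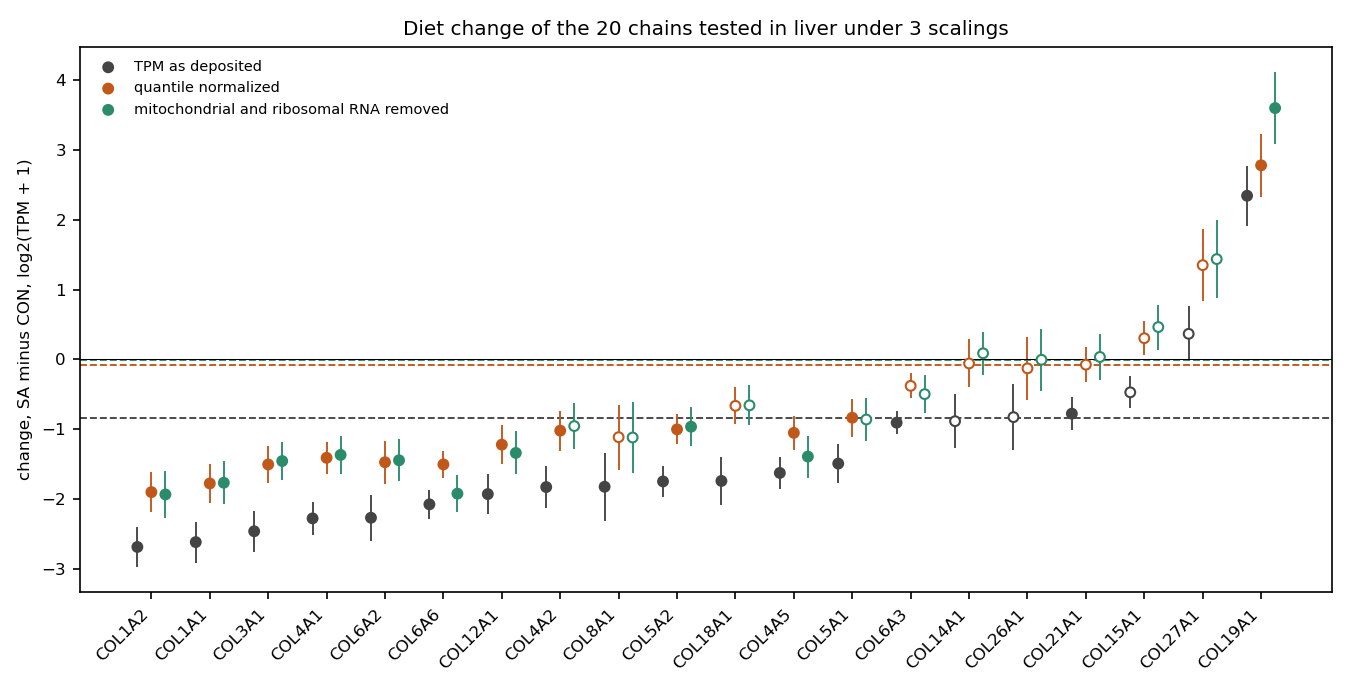
Change of the 20 chains tested in liver, as the SA minus CON difference in log2(TPM + 1), bars being standard errors, for deposited TPM, for quantile-normalized values and for TPM rescaled without mitochondrial and rRNA genes. Filled points passed an adjusted p under 0.05 and dashed lines mark the median change of all genes under each scaling. The leftmost chains, led by COL1A2 and COL1A1, stay below all 3 dashed lines, and COL19A1 stays above.

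The make-up of liver collagen was compared between diets as well. The shares of fibrillar chains, at 21.8 to 45.1% in SA and 27.0 to 35.9% in CON, overlapped. So did those of type IV chains, at 5.64 to 9.30% in SA and 9.09 to 13.7% in CON. Multiplexins, at 32.6 to 50.8% in SA and 28.4 to 49.9% in CON, overlapped too. Fibril-associated chains held 10.5 to 21.4% of collagen TPM in SA and 5.81 to 8.22% in CON, but without COL19A1 these shares were 5.54 to 14.5% in SA and 5.81 to 8.18% in CON, which overlap. The 4 type VI chains measured, which lack COL6A1, held 2.36 to 4.59% in SA and 4.79 to 9.26% in CON, without overlap but close together at the edge. The highest share, in CON 2, includes COL6A5 at 5.73 TPM, against 0.84, 0.60 and 0.88 TPM in the other CON libraries. The ratio of COL18A1 to COL15A1 was 7.84 to 23.4 in SA and 20.5 to 42.2 in CON, which overlap. The ratio of COL1A1 to its trimer partner COL1A2 was 1.15 to 2.01 in SA and 1.13 to 1.47 in CON, which overlap.

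Genes that build, trim, bind or sense collagen were counted by list in liver, where 59.1% of all genes tested were lower in SA under the deposited TPM. List genes that reached the filter through 1 diet alone were not set apart, and the filter favours the direction of any such gene. Of 20 genes of collagen folding and modification, 17 were tested, 14 were lower and none was higher. The collagen chaperone SERPINH1 was at 3.77, 3.49, 2.01 and 3.62 TPM in SA and 12.1, 21.5, 11.3 and 18 TPM in CON (limma, change −1.96, SE 0.25, adjusted p = 0.000174). P4HB, a subunit of prolyl 4-hydroxylase and also a general disulfide isomerase, was at 171, 108, 278 and 202 TPM in SA and 1196, 1004, 1023 and 1402 TPM in CON (limma, change −2.67, SE 0.34, adjusted p = 0.000164). Neither overlapped between diets. P4HA1, the catalytic prolyl 4-hydroxylase subunit, was at 15.1, 3.22, 3.68 and 3.86 TPM in SA and 15.5, 16.5, 14.4 and 21 TPM in CON, with SA 1 inside the CON range (limma, change −1.50, SE 0.40, adjusted p = 0.00873). P3H2 changed by −1.39, COLGALT2 by −2.49 and PLOD3 by −1.87, all enzymes that modify collagen residues. PLOD2 and LOX, which prepare and make collagen crosslinks, were under the filter in liver.

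Of 14 genes of procollagen processing and crosslinking, 8 were tested and 7 were lower, among them PCOLCE2 (−1.92), the propeptidases ADAMTS2 (−1.54) and BMP1 (−1.20), and LOXL2 (−1.38). PCOLCE, an enhancer of procollagen cleavage, averaged 18.8 ± 6.68 TPM in SA and 31.6 ± 2.39 TPM in CON (SD, n = 4 each, limma adjusted p = 0.0315). Of 19 collagen-binding matrix proteins, 14 were tested and 12 were lower. SPARC, a collagen-binding glycoprotein, was at 13.8, 17, 6.13 and 16.5 TPM in SA and 188, 225, 106 and 199 TPM in CON (limma, change −3.69, SE 0.37, adjusted p = 6.43e-05), and decorin (DCN) at 8.16, 8.49, 6.52 and 12 TPM in SA and 44, 61.3, 27.8 and 40.3 TPM in CON (limma, change −2.15, SE 0.28, adjusted p = 0.000182). Both were separated between diets in every library.

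Of 17 measured genes of collagen breakdown and its inhibitors, 9 were tested and 6 were lower. The gelatinase MMP2 was at 1.1, 1.43, 0.52 and 1.42 TPM in SA and 15.6, 13.7, 4.62 and 13.7 TPM in CON (limma, change −2.52, SE 0.34, adjusted p = 0.000227), while the inhibitor TIMP1 averaged 3.83 ± 2.23 TPM in SA and 6.56 ± 3.16 TPM in CON and did not pass (limma, adjusted p = 0.155). MMP14 changed by −2.40, TIMP3 by −2.25 and the collagen-cleaving cathepsin CTSK by −1.87. All 3 tested collagen receptors of 9 measured were lower, namely ITGB1 (−2.31), ITGA1 (−0.76) and ADGRG1 (−0.78). Only 2 of the 9 averaged 1 TPM or more in liver SA, so the filter may favour this direction. Of 16 basement membrane partners, 14 were tested, 9 were lower, such as LAMC1 (−2.17) and NID1 (−2.25), and 1, the laminin chain LAMA2, was higher (1.11). Of 13 TGF-beta regulators of collagen genes, 11 were tested and all 11 were lower, with TGFBR2 at −3.32 and SMAD4 at −1.78. In liver SA 9 of the 13 averaged 1 TPM or more, so the same limit holds for this count.

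The list medians ran from −0.78 for collagen receptors to −1.78 for collagen-binding matrix proteins, against −0.83 for all genes. The counts of these lists were smaller under the other scalings, an alternative added for the lists after seeing the data. Lower under quantile normalization were 7 genes of folding and modification, 4 of processing and crosslinking, 8 collagen-binding proteins, 5 of breakdown, 1 receptor, 4 basement membrane partners and 5 TGF-beta regulators, against 21.1% of all genes. With mitochondrial and rRNA genes removed the counts were 5, 4, 8, 5, 1, 3 and 5 in the same order of lists, against 14% of all genes. Marker lists of the cells that make or surround liver collagen were also read, where 59.1% of all genes were lower under the deposited TPM. Markers that reached the filter through 1 diet alone were not set apart here either. The 11 endothelial markers summed to 21.2 to 38.1 TPM in SA and 131 to 171 TPM in CON, with 9 of 11 lower. The 7 hepatic stellate markers summed to 15.7 to 34 TPM in SA and 41.3 to 98.5 TPM in CON, with 5 lower. The 10 fibroblast markers summed to 30.7 to 75.4 TPM in SA and 74.8 to 129.5 TPM in CON, which overlap, with 5 of 6 tested lower. The 8 hepatocyte markers summed to 7079 to 25268 TPM in SA and 87849.5 to 98883 TPM in CON, with 7 lower. The 11 smooth muscle and pericyte markers summed to 27.5 to 65 TPM in SA and 59.3 to 109.6 TPM in CON, which overlap, with 4 of 9 tested lower and a median change of −0.71. The 8 macrophage markers summed to 182 to 399 TPM in SA and 505 to 830.3 TPM in CON, with 6 of 7 tested lower. After quantile normalization 6 endothelial, 2 stellate, 3 fibroblast, 5 hepatocyte, 2 smooth muscle and pericyte and 1 macrophage markers were lower. With mitochondrial and rRNA genes removed these counts were 6, 1, 3, 5, 2 and 1. The shares of all genes lower were again 21.1% and 14%. A fibroblast marker was higher under both, and a smooth muscle and pericyte marker under quantile normalization. Some genes are in more than 1 list, so the lists are not separate readings. Shared with another list were 5 fibroblast, 2 stellate and 2 smooth muscle and pericyte markers. DCN, for example, is both a fibroblast marker and a collagen-binding protein. No member of these 6 marker lists was at 0 in all libraries of either diet, and their part in the collagen result was not tested.

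In tail fat, no collagen chain passed the test of diet. Of the 40 chains, 17 were tested and 0 were called, while 0.697% of all 11185 genes tested were called. The median change was −0.03 for the chains and −0.06 for all genes, with 8 chains above 0 and 9 below. At an unadjusted p under 0.05 there were 1596 genes and 1 chain, COL27A1, which averaged 0.76 ± 0.42 TPM in SA and 3.06 ± 1.97 TPM in CON (SD, n = 4 each, limma change −1.10, SE 0.40, adjusted p = 0.24). Standard errors of the 17 changes were 0.39 to 0.74 on the log2 scale. Weighting libraries by their quality gave 5 calls, all lower in SA, a joint fit of all tissues gave 2, and removal of mitochondrial and rRNA genes gave 1. The share of all genes called under these settings is not given here, so these counts are not a result about collagen.

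The libraries SA 1 and CON 2 carried the most collagen of their diets. COL3A1 was at 956, 218, 204 and 206 TPM in SA and 369, 1120.2, 206 and 405 TPM in CON. COL4A1 was at 990.0, 326, 249 and 131 TPM in SA and 218, 669, 141 and 197 TPM in CON. COL4A2 was at 432, 139, 109.6 and 63.8 TPM in SA and 86.9, 248, 70.4 and 109 TPM in CON. In each of the 3 chains SA 1 and CON 2 stood above the other 6 libraries. COL1A1 was at 438, 103, 93.8 and 80.8 TPM in SA and 119.7, 179, 62.5 and 276 TPM in CON. COL1A2 was at 351, 58.4, 57 and 52.3 TPM in SA and 77.1, 159, 38.6 and 124 TPM in CON. For COL1A1 the highest CON library was CON 4 rather than CON 2, and for COL1A2 it was CON 2.

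Type V and VI chains repeated the picture. COL5A1 was at 78.8, 20.03, 18.1 and 13.7 TPM in SA and 16.4, 47.6, 13.1 and 32.5 TPM in CON. COL5A2 was at 161, 60.8, 51 and 32.9 TPM in SA and 40.1, 146, 29.8 and 42.9 TPM in CON. COL5A3, the least widespread of the type V chains, was at 229, 46.9, 32.6 and 13.2 TPM in SA and 22.6, 92.9, 18.5 and 44.1 TPM in CON. SA 1 was the highest of all 8 tail fat libraries for each type V chain. COL6A2, a chain of the type VI filaments that surround fat cells, was at 202, 119, 79.3 and 26.4 TPM in SA and 74.1, 142, 39.2 and 109.9 TPM in CON. COL15A1 was at 142, 29.2, 29.9 and 31 TPM in SA and 73.9, 153, 22.1 and 54.4 TPM in CON. COL18A1 was at 45, 18.3, 15.9 and 9.43 TPM in SA and 15.2, 39.3, 12.6 and 19.99 TPM in CON. In every one of these chains the diets overlapped.

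**Figure D5:**
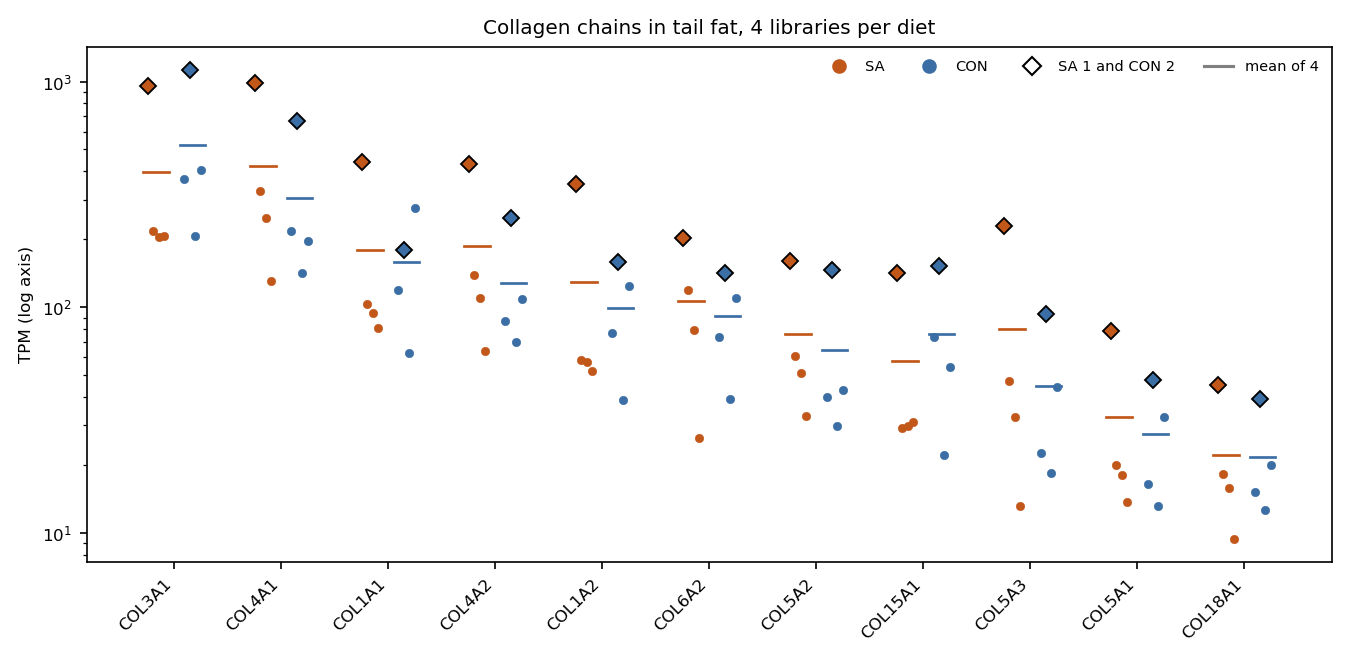
TPM of the 11 most abundant collagen chains in the 8 tail fat libraries on a log axis, SA in orange left of CON in blue, with SA 1 and CON 2 as outlined diamonds and lines for the mean of 4. The diamonds lie at or near the top of each group, and the other libraries of both diets overlap in all 11 chains.

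SA 1 was the highest SA library for 17 of the 17 tested chains, at 1.57 to 7.03 times the median of the other SA libraries (median 3.97). CON 2 was the highest CON library for 13 of 17 chains, at 0.56 to 4.11 times the median of the other CON libraries (median 2.59). The share of all genes highest in SA 1 or CON 2 is not given here, so these counts are not a result about collagen. These 2 libraries also had the lowest mitochondrial shares of tail fat, at 25.6% in SA 1 and 22.5% in CON 2, against 36.4% to 70.6% in the other 6, and CCDC152 near 0. The skeletal muscle genes ACTA1 and CKM were at 16.5 and 11.8 TPM in SA 1 and 38.1 and 37.2 TPM in CON 2, and at most 1.44 and 0.13 TPM in the other 6. With both libraries left out, an alternative chosen after seeing the data, again 0 chains were called, with changes of −0.36 for COL1A2, −0.16 for COL5A1 and −0.12 for COL6A2, each opposite in sign to the change in all 8 libraries. The part of the mitochondrial share, of CCDC152 and of muscle genes in the tail fat levels was not tested.

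The partner genes of collagen did not pass in tail fat either, with 1 exception. Osteoglycin (OGN), a small collagen-binding proteoglycan, averaged 13.6 ± 1.12 TPM in SA and 81.9 ± 49.7 TPM in CON and fell by 2.29 on the log2 scale (SE 0.49, limma adjusted p = 0.0488), and it was the only called gene of the 7 collagen pathway lists. SERPINH1 was at 379, 126, 111 and 88.7 TPM in SA and 56.3, 181, 32.5 and 82.3 TPM in CON (limma, change 1.01, SE 0.58, adjusted p = 0.447). SPARC was at 6091, 979, 736 and 308 TPM in SA and 741, 3901, 439 and 726 TPM in CON (limma, change 0.14, SE 0.88, adjusted p = 0.961). LOX was at 8.02, 2.93, 2.85 and 1.47 TPM in SA and 7.98, 24, 4.53 and 6.17 TPM in CON (limma, change −1.18, SE 0.55, adjusted p = 0.346). The diets overlapped for SERPINH1, SPARC and LOX. The changes of P4HA1, P4HB, PLOD2, PCOLCE, MMP2, TIMP1 and DCN ran from −0.88 to 0.84, and none passed.

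In the libraries labelled hypothalamus, 23 of the 40 chains were tested and 0 were called, where 0% of all 14126 genes were called. At an unadjusted p under 0.05 there were 493 genes and 1 chain, COL16A1. This fibril-associated chain was at 3.21, 2.06, 2.64 and 1.98 TPM in SA and 3.27, 3.45, 4.4 and 4.58 TPM in CON, with every SA library below every CON library (limma, unadjusted p = 0.0105, change −0.51, SE 0.16, adjusted p = 0.947). COL9A3, a type IX chain and the most abundant collagen of the CON libraries, was at 6.96, 7.18, 1.79 and 10.0 TPM in SA and 4.14, 7.09, 5.66 and 10.8 TPM in CON, which overlap. COL14A1 had the widest spread, at 2.18, 45, 3.5 and 14 TPM in SA and 3.24, 1.42, 1.47 and 8.28 TPM in CON, with SA 2 far above the others (limma, change 1.35, SE 0.83, adjusted p = 0.947). COL1A1, COL1A2 and COL3A1 were highest in SA 4, at 10.5, 15.2 and 7.12 TPM, and overlapped between diets. The changes of the measured panel genes ran from −0.09 for PLOD2 and −0.09 for TIMP1 to 0.29 for DCN, and none passed.

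In the libraries labelled pituitary, 26 chains were tested and 0 were called, where 0% of all 14472 genes were called. At an unadjusted p under 0.05 there were 218 genes and 2 chains, COL16A1 and COL26A1. COL16A1 was at 2.74, 1.7, 2.61 and 1.92 TPM in SA and 10.6, 3.18, 4.55 and 4.32 TPM in CON, again with SA below CON in every library (limma, unadjusted p = 0.00971, change −0.94, SE 0.31, adjusted p = 0.747). COL26A1 averaged 2.17 ± 1.35 TPM in SA and 4.03 ± 0.57 TPM in CON (SD, n = 4 each, limma change −0.77, SE 0.32, adjusted p = 0.747). COL1A2 was at 14.5, 19.6, 12.3 and 14.1 TPM in SA and 22.9, 12.5, 21.5 and 32.4 TPM in CON (limma, change −0.48, SE 0.32, adjusted p = 0.747). COL25A1, a transmembrane collagen made by neurons and found in amyloid plaques in humans, was at 11, 14, 2.33 and 2.2 TPM in SA and 12.5, 9.9, 11 and 16.8 TPM in CON. SA 3 and SA 4 were low for COL25A1 while SA 1 and SA 2 lay within the CON range (limma, change −1.01, SE 0.47, adjusted p = 0.747). None of the panel genes passed, with changes of −0.22 for MMP2 and 0.40 for SERPINH1.

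A limma F-test on the deposited TPM of all 32 libraries asked whether the SA minus CON change of a chain differed between the 4 tissues. In its liver part the making or counting of the libraries cannot be told apart from the diet. Of 31 chains tested, 15 passed, against 27% of all 16360 genes. The fibre-forming chains COL1A1 (adjusted p = 0.00432), COL1A2 (0.00242), COL3A1 (0.00224), COL5A1 (0.0499) and COL5A2 (0.0123) were among them, as were COL4A1 (0.0023), COL4A2 (0.00949), COL4A5 (0.000436), COL6A2 (0.00732) and COL18A1 (0.0116). In COL1A1, for example, the change was −2.62 in liver, −0.03 in tail fat, 0.47 in hypothalamus and −0.20 in pituitary. COL6A6 had the smallest adjusted p (4.1e-08), and COL19A1 was the only one of the 15 whose liver change was upward (4.35e-05). Both reached the filter in liver alone, COL6A6 through CON and COL19A1 through SA. These chains had to differ by diet in liver in order to be tested, and they are counted among the 15. In COL11A1 (adjusted p = 0.0407) the largest change was in tail fat, at 0.99, where it was at 1.86, 0, 0.92 and 1.93 TPM in SA and 0, 0.02, 0 and 0.01 TPM in CON, too low for the fit of tail fat alone.

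Between tissues of CON sheep, tail fat held more fibre-forming and type IV collagen than liver. CCDC152 was at 162, 0.12, 156 and 57.8 TPM in tail fat CON and at 0 in every liver CON library. Mitochondrial shares were 22.5 to 70.6% in tail fat CON and 20.2 to 27.8% in liver CON. The part of library making or counting in this contrast was not tested. Of 21 chains tested, 12 were higher and 8 were lower in tail fat, against 18% of all 12397 genes higher and 22.4% lower. Without the 3 chains that reached the filter through 1 tissue alone, 11 of 18 were higher and 6 lower. Of the 7 fibrillar chains tested 6 were higher, with COL3A1 averaging 525 ± 406 TPM in tail fat CON and 54.1 ± 15.4 TPM in liver CON (limma, change 3.02, SE 0.49, adjusted p = 0.000148). COL4A1 averaged 306 ± 244 TPM in tail fat CON and 23.1 ± 5.81 TPM in liver CON (limma, change 3.43, SE 0.48, adjusted p = 3.89e-05). COL5A3, tested through tail fat alone, was at 22.6, 92.9, 18.5 and 44.1 TPM in tail fat CON and 0.41, 0.43, 0.10 and 0.35 TPM in liver CON (limma, change 4.83, SE 0.45, adjusted p = 6.06e-07). Lower in tail fat were COL18A1 (limma, change −2.85, SE 0.43, adjusted p = 8.3e-05), COL6A6 (−2.22) and COL4A5 (−2.02), both tested through liver alone, and COL26A1 (−1.89), COL27A1 (−1.71), COL8A1 (−1.64), COL21A1 (−1.48) and COL14A1 (−1.13). The other multiplexin, COL15A1, was higher in tail fat, at 75.8 ± 55.6 TPM in tail fat CON and 5.29 ± 0.61 TPM in liver CON (limma, change 3.31, SE 0.50, adjusted p = 7.33e-05).

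Against tissue labelled hypothalamus, tail fat CON had 15 of 24 tested chains higher and 6 lower, where 12.6% of all 14175 genes were higher and 50.7% lower. CCDC152 was at 0 to 0.08 TPM in hypothalamus CON, under every tail fat CON library. The part of library making or counting was not tested here either. Without 5 chains tested through 1 tissue alone, 14 of 19 were higher and 2 lower. COL3A1 was at 2.1, 2.38, 3.41 and 2.66 TPM in hypothalamus CON, under every tail fat CON library (limma, change 6.90, SE 0.47, adjusted p = 2.47e-07). Liver CON had 17 of 26 tested chains higher and 7 lower than hypothalamus CON, where 20.2% of all 14532 genes were higher and 60.1% lower, led by COL18A1 at 222, 115, 125 and 154 TPM in liver CON and 2.18, 1.85, 3.28 and 2.75 TPM in hypothalamus CON (limma, change 5.43, SE 0.22, adjusted p = 6.14e-09). Without 8 chains tested through 1 tissue alone, 15 of 18 were higher and 1 lower. COL9A3 was at 0, 0, 0.03 and 0.03 TPM in liver CON and 4.14, 7.09, 5.66 and 10.8 TPM in hypothalamus CON (limma, change −2.90, SE 0.23, adjusted p = 9.28e-07), and it was listed at 0 in every tail fat CON library. COL11A1, COL11A2 and COL9A1 were likewise lower in liver than in hypothalamus (limma, changes −1.97, −2.46 and −1.80) and lower in tail fat than in hypothalamus (−1.99, −1.57 and −1.96). These 4 chains were tested through hypothalamus alone in both contrasts, except COL11A2 against tail fat, so their direction was fixed by the filter and only their size is described. With no filter each kept an adjusted p of at most 0.000169 by limma in the contrasts where this held. These contrasts share the hypothalamus CON libraries.

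The pituitary-labelled CON libraries differed from the hypothalamus-labelled ones in fewer chains. Of 24 tested, 8 were higher and 1 was lower in pituitary, against 23.2% of all 14427 genes higher and 7.8% lower. COL25A1 was at 12.5, 9.9, 11 and 16.8 TPM in pituitary CON and 1.25, 1.18, 1.18 and 1.53 TPM in hypothalamus CON, with no overlap (limma, change 2.55, SE 0.17, adjusted p = 8.23e-06). COL1A1 was at 18, 6.65, 24.5 and 28.4 TPM in pituitary CON and 2.46, 3.52, 3.61 and 2.35 TPM in hypothalamus CON (limma, change 2.20, SE 0.38, adjusted p = 0.00238), and COL1A2 at 22.9, 12.5, 21.5 and 32.4 TPM in pituitary CON and 4.00, 6.17, 7.17 and 5.12 TPM in hypothalamus CON (limma, change 1.77, SE 0.26, adjusted p = 0.000987). All pituitary CON libraries exceeded all hypothalamus CON libraries for both type I chains. COL8A1, a short-chain collagen of vessels, was higher too (limma, change 1.54, SE 0.17, adjusted p = 0.000142), and COL9A3 was lower (limma, change −1.25, SE 0.42, adjusted p = 0.0483). Without hypothalamus CON 1, 5 chains passed in place of 9. The 8 leptomeningeal fibroblast markers summed to 27 to 31.1 TPM in pituitary CON and 10.3 to 12.4 TPM in hypothalamus CON, none of them at 0 in all libraries of either, and their part in these differences was not tested.

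The ratio of COL4A1 to COL4A2 was 2.06 to 2.34 in tail fat SA and 1.80 to 2.70 in tail fat CON, and it was 1.01 to 1.15 in hypothalamus SA and 1.02 to 1.22 in hypothalamus CON. The ratio of COL3A1 to COL1A1 was 2.11 to 2.55 in tail fat SA and 1.47 to 6.25 in tail fat CON, and 0.33 to 0.47 in pituitary SA and 0.18 to 0.66 in pituitary CON. In the RefSeq gene order of the assembly ARS-UI_Ramb_v3.0, which held all 40 chains by symbol, 6 pairs of chains are direct neighbours. Over the 32 libraries, deviations from the 8 group means correlated at 0.95 for the COL4A1 and COL4A2 pair, 0.82 for COL3A1 and COL5A2, 0.79 for COL4A3 and COL4A4, 0.56 for COL6A5 and COL6A6, 0.44 for COL4A5 and COL4A6, and −0.06 for COL9A1 and COL19A1. These are descriptions over libraries that share composition differences.

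The named genes whose deviations followed COL1A1 most closely over the 32 libraries, among 8577 genes with a mean of at least 5 TPM, were ELN (Pearson r 0.85), AEBP1 (0.81), RFLNB (0.80), DAB2 (0.77) and MYH11 (0.75). ELN encodes elastin, AEBP1 a collagen-binding matrix protein and MYH11 the myosin of smooth muscle. Over the 24 libraries without tail fat their r was 0.66 to 0.81. Those closest to COL4A1 were ECE1 (0.93), VCL (0.92), NIBAN2 (0.90), OLFML1 (0.90) and the fat droplet gene PLIN4 (0.89). Without tail fat these values were 0.62, 0.73, 0.52, 0.52 and −0.11, so the likeness of PLIN4 to COL4A1 rests on the tail fat libraries.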

How the data were processed

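RNA was extracted with TRIzol and made into stranded libraries from oligo(dT)-captured messenger RNA, per the labels' protocols. The submitters' processing notes name fastp, HISAT2 and RSEM. The sources used here give no versions, genome build, annotation or strand setting. The authors deposited TPM values, read as such from the column sums, with 13350 of 30722 rows unnamed. TPM are relative, so a transcript class that takes more of a library lowers all others. Depth is unknown, so no counting interval is given. The 8 group-mean columns were not used.

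Each fit took the genes that reached 1 TPM in 4 or more of its 8 libraries and tested log2(TPM + 1) values by limma 3.58.1 (R 4.3.3, trend and robust moderation), two-sided, with Benjamini-Hochberg adjustment over all genes tested and a threshold of 0.05. A fold on this scale understates changes of low genes. Diet was tested in each tissue alone, tissues among CON libraries, and the interaction by an F-test with 3 degrees of freedom. The fits were tested on simulated data. Library values were given for chains with a group mean of 20 TPM or more and for the 10 chains of smallest p past the diet threshold, with up to 4 called genes per pathway list as examples, a fixed panel of 10 genes, and the 5 genes most like COL1A1 and COL4A1. Some other chains, such as COL19A1 in liver, were added after their values were seen. Alternatives were another pseudocount (0.1), no filter, quantile normalization, removal of 13 mitochondrial and 51 ribosomal RNA genes with rescaling to 1000000, array weights, a joint fit, the replicate number as a block and leaving out each library. The collagen chains, gene lists and rules were chosen with earlier results of these data known. The replicates are separate sheep per the labels.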

Additional observations from a re-analysis of the deposited data

Results flagged for a closer look

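Of 46 groups of 4 libraries examined in liver, tail fat and pituitary, 8 held a library far from the other 3 by Dixon's criterion on TPM. Chance gives about 5% of independent groups. The chains of a tissue were read in the same libraries, so the 8 are not separate findings and are not compared with that rate. Chains were picked partly by a group mean of 20 TPM or more, which a single high library raises. All 8 were among the 22 tail fat groups. The library was SA 1 for COL3A1 at 956 TPM, COL1A1 at 438 TPM, COL1A2 at 351 TPM, COL5A3 at 229 TPM, COL15A1 at 142 TPM and COL5A1 at 78.8 TPM. It was CON 2 for COL4A1 at 669 TPM and COL5A2 at 146 TPM.

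The SA minus CON change differed between the 4 tissues for 15 chains by the limma interaction test, against 27% of all genes. The adjusted p was 4.1e-08 for COL6A6, 4.35e-05 for COL19A1, 0.000436 for COL4A5, 0.00224 for COL3A1, 0.0023 for COL4A1, 0.00242 for COL1A2, 0.00432 for COL1A1 and 0.00732 for COL6A2. It was 0.00949 for COL4A2, 0.0116 for COL18A1, 0.012 for COL8A1, 0.0123 for COL5A2, 0.0206 for COL12A1, 0.0407 for COL11A1 and 0.0499 for COL5A1. In 14 of the 15 the largest change in size was the one in liver, and in COL11A1 it was in tail fat. How the liver libraries were made or counted cannot be told apart from the diet. COL6A6 reached the filter through liver CON alone and COL19A1 through liver SA alone.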

How the results depend on the processing

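In liver, 16 chains passed, and leaving out each library gave 15 to 18, while removal of mitochondrial and ribosomal RNA gave 10. In tail fat, where 0 passed, removal gave 1 (COL14A1), array weights gave 5 (COL3A1, COL8A1, COL14A1, COL15A1 and COL27A1, all lower) and the joint fit of 32 libraries gave 2 (COL11A1 and COL27A1). In pituitary, array weights gave 1 (COL8A1). In each tissue other than liver, leaving out a library gave 0 diet calls. The contrast of pituitary and hypothalamus, with 9 chains, gave 5 to 13, with 5 when hypothalamus CON 1 was left out. Apart from the removal in liver, the share of all genes called under these settings is not given here. The counts are thus not a result about collagen. The cause of these shifts was not tested.

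Tail fat directions were unstable. COL1A2 changed by 0.02 in all 8 libraries, and by −0.41 under quantile normalization, −0.31 under removal, −0.56 under array weights and −0.36 without SA 1 and CON 2. COL5A1 changed by 0.06, and by −0.16, −0.27, −0.17 and −0.16 under the same 4 settings. COL6A2 changed by 0.04, and by −0.41, −0.29, −0.0069 and −0.12. COL5A2 changed by 0.28, and by −0.088 under quantile normalization and −0.048 under removal. Under quantile normalization COL4A1 changed by −0.040 and COL4A2 by −0.15, against 0.34 and 0.33 as deposited. Leaving out each tail fat library gave −0.47 to 0.25 for COL18A1, −0.59 to 0.30 for COL1A1, −0.64 to 0.30 for COL1A2, −0.20 to 0.81 for COL4A1, −0.19 to 0.72 for COL4A2, −0.48 to 0.37 for COL5A1, −0.16 to 0.76 for COL5A2, −0.40 to 0.94 for COL5A3 and −0.38 to 0.59 for COL6A2.

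With the replicate number as a block, 17 chains passed in liver, 0 in tail fat, hypothalamus and pituitary, 20 for tail fat against liver, 21 for tail fat against hypothalamus, 24 for liver against hypothalamus, 7 for pituitary against hypothalamus and 14 in the interaction. The share of all genes called with this block is not given here. Same-numbered libraries did not deviate together in any pair of groups by the criterion of a correlation over 0.1 in all 4 pairs, so the numbers were not taken as pairing sheep. Hypothalamus SA with pituitary SA came close, with 3 of 4 pairs over 0.1 and correlations of 0.0928 to 0.339. The main interaction test treated the libraries of different tissues as independent, and whether they share sheep is unknown here. Depth is unknown for these TPM.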

Other observations

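In a few chains a single library stood above the rest. COL28A1 was at 0.03, 0.06, 0.01 and 0 TPM in tail fat SA and 0.29, 0.30, 6.00 and 0 TPM in tail fat CON. COL17A1, a hemidesmosome collagen, was at 1.54, 5.03, 1.11 and 0.72 TPM in hypothalamus SA and 0.41, 1.41, 0.46 and 0.87 TPM in hypothalamus CON.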
